A study of Drosophila melanogaster with 2 samples.

Results

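The genes px (plexus), net and bs (blistered) are 3 of 13986 annotated protein-coding genes of Drosophila melanogaster, examined here for binding of CG17568. Within 2000 bp of their gene bodies lay 12 of the 3396 summits of the authors' list thresholded on the irreproducible discovery rate (IDR), with 9 at px, 2 at net and 1 at bs. The genes were selected on peak signals already seen in these lists, so their counts, signals and ranks are given as a description, with no test. All summits inside the window of each gene were taken, from the IDR list, from the list called on both replicates pooled, and from the list of each replicate. The study holds 1 group of 2 biological replicates: whole embryos of mixed sex, 0 to 20 h old, of a stable transgenic line in which CG17568 carries GFP at its C terminus. Chromatin was sonicated to 200 to 800 bp. The assay field names ChIP-seq of a transcription factor, but a free-text line calls both samples input controls, so every value below holds only if they were ChIP samples. No second condition or wild-type embryo was analysed here, and wing tissue was not assayed on its own.

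In the fly wing, px, net and bs keep the cells between the veins from forming vein, and loss of any of them gives extra vein tissue. px encodes a nuclear protein, net encodes a basic helix-loop-helix transcription factor that restrains vein-promoting genes, and bs encodes the fly serum response factor, a MADS-box protein needed for intervein fate and for the terminal branches of the trachea. CG17568 is a predicted zinc finger protein, read here through its GFP fusion. In each list a peak has a summit and a signal value given by the authors' caller on an unstated scale, so signals are used only to rank peaks within their own list. Rank 1 is the highest. The files give no read counts, and the depth of either replicate is unknown.

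The promoter and the 3′ flank of net are shown first, because its 2 IDR summits frame the gene. The lines give 101 bases of the dm6 reference, plus strand and 5′ to 3′, centred on each summit, with the strongest net summit outside the IDR list as the third. net is on the minus strand of 2L, so its start site lies to the left of the promoter window, 211 bp from the summit. Capitals mark matches on either strand to the GAGA factor motif GAGAG, the E-box CAGCTG, the Zelda motif CAGGTAG, the TATA box TATAAA, the CArG box of serum response factors or 1 of the 10 leading 8-mers of the whole IDR list. The first window lies at chr2L:81370-81470, the second at chr2L:87548-87648 and the third at chr2L:85224-85324.
net 3′ flank, IDR summit at 81420: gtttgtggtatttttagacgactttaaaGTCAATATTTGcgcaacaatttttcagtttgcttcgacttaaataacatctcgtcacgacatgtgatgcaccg
net promoter, IDR summit at 87598: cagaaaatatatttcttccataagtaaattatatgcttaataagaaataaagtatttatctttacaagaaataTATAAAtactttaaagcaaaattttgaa
net intron, pooled summit at 85274: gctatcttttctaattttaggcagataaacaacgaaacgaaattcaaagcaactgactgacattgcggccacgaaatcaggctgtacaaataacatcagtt
The 3′ flank window carries an 11-base run, GTCAATATTTG, from 22 to 12 bases left of the summit. This run joins 3 overlapping 8-mers of the leading 10, AATATTGA and ATATTGAC on the minus strand and AATATTTG on the plus strand. The promoter window is AT-rich, with 16.8% G and C, and its only capital stretch is a TATAAA from 23 to 28 bases right of the summit. This match is on the plus strand, opposite to net, and lies farther from the net start site than the summit does. The intron window holds none of the marked motifs.

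net had an IDR summit at each end of the gene and none inside it. The gene (FBgn0002931) occupies 82421 to 87387 on 2L, 4967 bp, with 2 transcripts that share 1 start site. The promoter summit lay 211 bp upstream of that start site in intergenic DNA, with a signal of 243, and ranked 1061 in the pooled list, 1382 in replicate 1 and 1043 in replicate 2. The other lay 1001 bp beyond the 3′ end of the gene, also intergenic, with a signal of 255, and ranked 983 in the pooled list and 1062 in replicate 1. At that place replicate 2 had a pair of overlapping peaks, whose summits at 81324 (rank 933) and 81534 (rank 2643) stood 96 and 114 bp to either side of the pooled summit. Both ends of net thus held nearly equal pooled signals, and both ranked above the middle of the IDR list. No other start site was closer to the 3′ summit than that of CG11374, 5072 bp away.

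The pooled list added 5 weaker summits at net, with signals from 33.1 to 112. The strongest, in the single 2742 bp intron and 2113 bp downstream of the start site, ranked 4166 in the pooled list, 2502 in replicate 1 and 8624 in replicate 2. It therefore stood inside the highest 3396 of replicate 1 and outside those of replicate 2. A second intronic summit (signal 48.1) matched replicate 1 alone within 100 bp, and a summit in the 3′ UTR (signal 60.3) matched both. The summits nearest to the edges of the window, with signals of 33.1 and 35.5, had no counterpart within 100 bp in either replicate.

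px carried 9 IDR summits, all in its introns, and 1 of them was among the strongest sites of the genome. The gene (FBgn0003175) runs from 22494297 to 22562065 on the minus strand of 2R, 67769 bp, with 6 transcripts from 3 start sites. The longest transcripts (px-RA, px-RE, px-RF and px-RG) begin at 22562065, px-RB at 22546558 and px-RD at 22514099. Of the 9 IDR summits, 5 lay in the 35108 bp intron 12 of px-RA, 2 in its 776 bp intron 1, 1 in its 14240 bp intron 3 and 1 in its 3110 bp intron 5. No exon of px held a summit of the IDR list. Introns 12 and 3 alone cover most of the gene, and the part of intron length in this placement was not tested.

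The highest px summit, at 22514308, stood 209 bp upstream of the start of the short transcript px-RD, with a signal of 1962. It ranked 6 in the pooled list, 7 in replicate 1 and 5 in replicate 2, and its summits in the 3 lists fell within 4 bp of each other. In px-RA, px-RE, px-RF and px-RG the same position is inside intron 12, and in px-RB inside intron 11, which is the same 35108 bp interval. Around it stood 3 other IDR summits, so that 4 of the 9 lay within 5159 bp. The summit 3143 bp downstream of the px-RD start had a signal of 377 and ranked 476 in the pooled list, 498 in replicate 1 and 542 in replicate 2. The summit 2440 bp downstream had a signal of 147 and ranked 2621, 2377 and 3621 in the same order of lists. The summit 2016 bp upstream had a signal of 172 and ranked 1988, 1945 and 2330. The group around px-RD thus held the highest and the second highest site of the gene together with sites from below the middle of the IDR list.

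At the distal start site at 22562065, shared by the 4 longest transcripts, a pair of IDR summits lay in intron 1. They were 207 and 824 bp downstream of the start, 617 bp apart. The nearer had a signal of 159 and ranked 2284 in the pooled list, 3010 in replicate 1 and 2025 in replicate 2. The farther had a signal of 185 and ranked 1760, 2239 and 1650 in the same lists. The nearer summit was also 449 bp upstream of CG11362, which is read from the opposite strand, so it lies within 500 bp of the start sites of 2 genes.

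The start site of px-RB, between these groups, had no IDR summit within 500 bp. A pooled summit 359 bp upstream of it had a signal of 125 and ranked 3503 in the pooled list, 3495 in replicate 1 and 5073 in replicate 2. The weakest px summit inside the IDR list had a signal of 134 at rank 3073, and this one was the strongest outside it. Of the 3 px start sites, 2 were therefore marked within 500 bp at the IDR threshold, and the remaining one just below it.

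The other 3 IDR summits lay between the start sites, more than 4 kb from any of them. The summit 8222 bp downstream of the px-RB start, in intron 5 of px-RA, had a signal of 313 and ranked 676 in the pooled list, 565 in replicate 1 and 899 in replicate 2. The summit 4437 bp downstream, in intron 3 of px-RA and in the shorter intron 2 of px-RB, had a signal of 196 and ranked 1576, 1458 and 2446. The summit 15369 bp downstream, in intron 12, was the weakest of the 9 with a signal of 134, and ranked 3073, 2667 and 3818. All 3 had a summit in each replicate within 42 bp.

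The weaker pooled summits filled the 5′ and middle parts of px and left its 3′ part empty. The pooled list held 32 summits at px, and all 32 fell in introns of px-RA, 13 of them in intron 12 and 12 in intron 3. None of the 4 lists had a summit in the last 16.6 kb of the gene, which hold the 3′ end of intron 12 and the shared terminal exons. A jockey transposable element annotated in intron 12, 3483 bp long, also held no summit of any list. The gene gas lies inside intron 3 of px on the opposite strand, and a pooled summit of signal 101 stood 154 bp upstream of its start site, at rank 4956 and outside the IDR list. The gaps between neighbouring IDR summits of px ran from 617 to 19120 bp with a median of 3217 bp.

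bs had 1 IDR summit in its 37.6 kb window, and 1 other summit in the pooled list. The gene (FBgn0004101) runs from 24342861 to 24376473 on the plus strand of 2R, 33613 bp, with 3 transcripts from 2 start sites. The IDR summit at 24350986 had a signal of 149 and ranked 2551 in the pooled list, 4144 in replicate 1 and 2280 in replicate 2. It lay 7284 bp downstream of the nearest bs start site, in the 26954 bp intron 2 of bs-RA and bs-RC. The small coding gene CG44812 is nested there on the opposite strand, and the summit fell in its coding sequence, 403 bp downstream of its start. It counts as a promoter summit through CG44812 and not through bs. The other pooled summit, with a signal of 35.3 and rank 26269, matched both replicates within 15 bp and lay in the 3′ UTR of the short transcript bs-RB.

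The start sites of bs had summits in replicate 2 alone. That replicate had a summit 14 bp upstream of the first bs start (rank 5365), one 185 bp downstream of it (rank 20646) and one 77 bp downstream of the second start (rank 5576). Replicate 1 and the pooled list had no summit within 5000 bp of any of these 3. A roo transposable element of 8304 bp in intron 2 of bs held no summit of any list. The aligner is not stated, so whether reads could be placed in this element or in the jockey element of px is unknown. Neither is shown to be unbound.

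**Figure D1:**
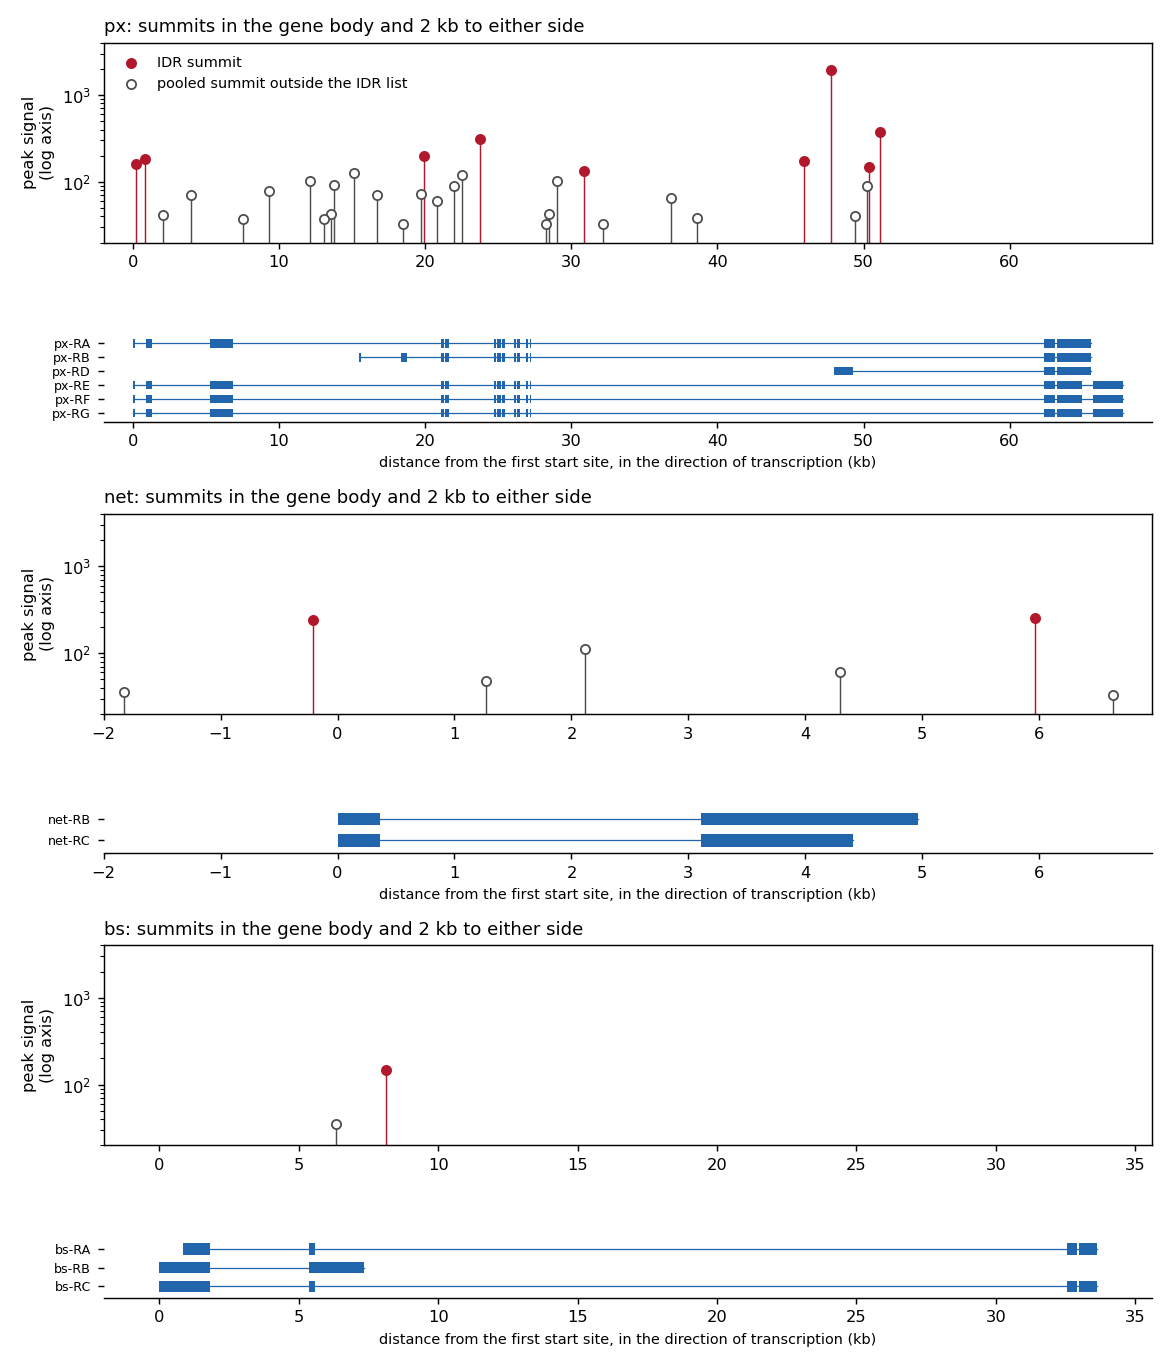
Position and signal of every pooled summit at px, net and bs. The horizontal axes give the distance from the first start site in the direction of transcription (kb) and the vertical axes the peak signal in the pooled list on a log scale, with transcripts drawn below (boxes are exons). Filled points are IDR summits and open points the weaker pooled summits, with 9 and 23 at px, 2 and 5 at net, and 1 and 1 at bs. The tallest px point, with a signal of 1962, stands just upstream of the px-RD start site.

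All 12 IDR summits of px, net and bs had a summit within 100 bp in both replicate lists, beside 94.5% of all IDR summits. The distance between a pooled summit and its counterpart ran from 0 to 96 bp with a median of 11.0 bp. Within the 3396 highest peaks of each replicate, 9 of the 12 were matched in both, beside 66.5% of all IDR summits. The 3 that were not were px at 2440 and 15369 bp downstream of a start site, which fell outside the highest 3396 of replicate 2, and bs, which fell outside those of replicate 1. The IDR list was made from these replicates, so these shares follow in part from how it was chosen. Of the 29 weaker pooled summits at the 3 genes, 14 matched both replicates, beside 37.1% over all pooled summits outside the IDR list. Another 3 of the 29 matched neither, and the share matched in neither over all such summits was not computed. The replicates had 48 summits (replicate 1) and 46 summits (replicate 2) at the 3 genes, and 25 of each had a summit of the other within 100 bp. The same share over the whole replicate lists was not computed, so whether this recovery is usual is unknown.

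**Figure D2:**
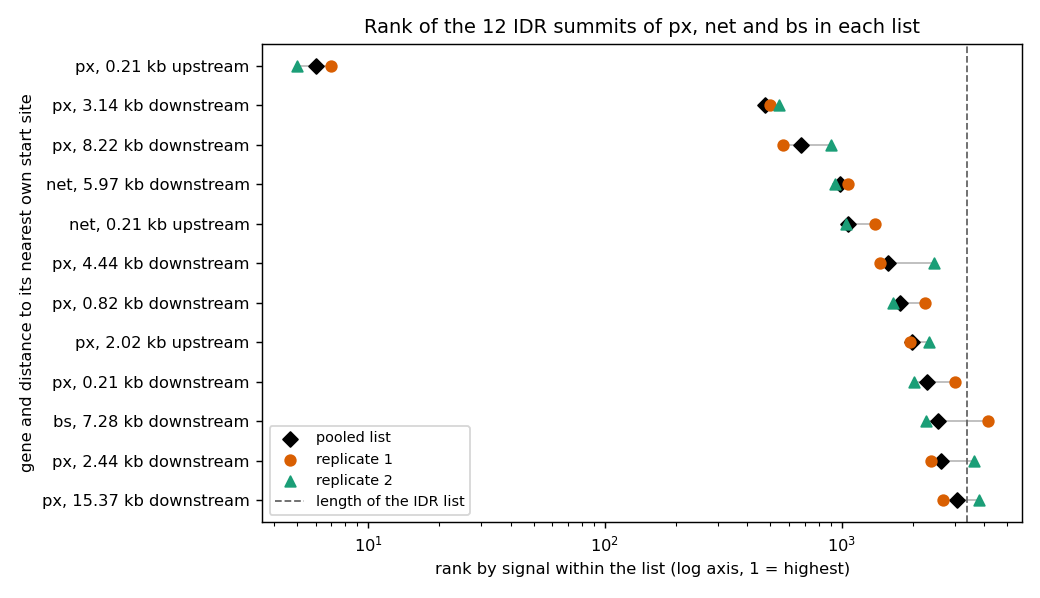
Rank by signal of the 12 IDR summits of px, net and bs in the pooled list (diamonds), replicate 1 (circles) and replicate 2 (triangles), on a log axis where 1 is the highest. Rows are ordered by pooled rank and named by gene and distance to its nearest own start site. The dashed line marks rank 3396, and 3 of the 12 rows have 1 replicate to the right of it, while the top px summit ranks 5 to 7.

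Of the 12 IDR summits, 4 lay within 500 bp of an annotated start site of any gene, beside 42.6% of all IDR summits. These 4 were a pair at px, the promoter summit of net and the bs summit near CG44812, so that 3 of the 4 belonged to a start site of the gene itself. By feature, 9 were intronic (all px), 2 intergenic (both net) and 1 in coding sequence (CG44812 within bs). The shares by feature over all IDR summits were not computed, so whether this split is usual is unknown.

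Per length, net had the most IDR summits of the 3 and bs the fewest, an order that rests on the 2000 bp flanks: over the gene body alone px had 9, net 0 and bs 1, and net came last. IDR summits numbered 1.25 per 10 kb at px, 2.23 at net and 0.266 at bs, each over the gene body and 2000 bp to either side. Pooled summits numbered 4.46, 7.81 and 0.532 per 10 kb at px, net and bs. Over all protein-coding genes, 2898 of 13986 (20.7%) had at least 1 IDR summit in the same window, and the median density of those 2898 was 1.47 per 10 kb. A short window with 1 summit has a high density, so each gene was also set beside genes of like window length. px had 9 IDR and 32 pooled summits, against medians of 1 and 16 over the 273 genes with windows of 50 to 100 kb, and 6 of these genes had more IDR summits than px. net had 2 IDR summits, against a median of 0 over the 11017 genes with windows under 10 kb. Of these genes 78 had more, and 327 others had the same number as net. Their median window was 5687 bp, shorter than the 8967 bp of net, so they match net in length only roughly. bs had 1 IDR and 2 pooled summits, against medians of 1 and 8 over the 617 genes with windows of 25 to 50 kb, and 480 of these genes had more pooled summits than bs.

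**Figure D3:**
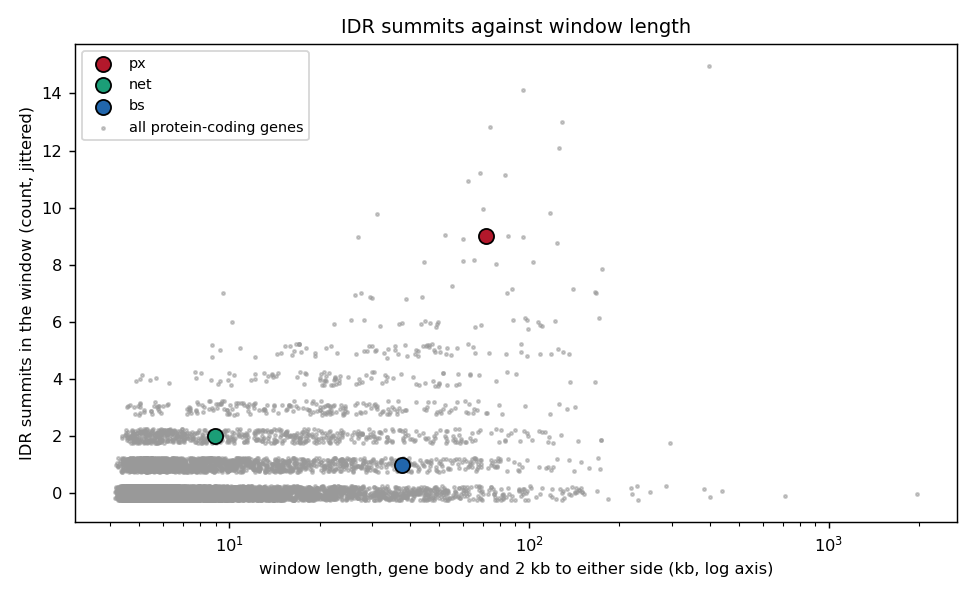
Number of IDR summits (count, jittered for the grey points) against window length (kb, log axis) for px, net, bs and all 13986 protein-coding genes. px, with 9 summits in 71.8 kb, stands in the sparse upper part of the plot, net has 2 summits in 8.97 kb and bs has 1 in 37.6 kb.

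In the whole annotation 11 protein-coding genes had more IDR summits in their window than px, and 6 others had the same number. Likeness was measured as an equal number of IDR summits and the closest window length, over the pooled IDR list. By it, px was nearest to Pdp1 (59.9 kb), RapGAP1 (85.2 kb) and Raf (52.4 kb), each with 9 summits. The highest signal of px was 1962, and those of Pdp1, RapGAP1 and Raf were 434, 784 and 812. The equal count leaves out ush, with 11 summits in a 68.3 kb window and a highest signal of 1915. By highest signal in the window, px ranked 12 among protein-coding genes. net was nearest to Syx4, ND-39 and Elp6, with windows of 8.99 to 9.10 kb and 2 summits each. bs was nearest to CG14082, cher and scro, with windows of 37.6 to 37.9 kb and 1 summit each. Nearest outside the windows, the next IDR summit was 7970 bp from px, 15208 bp from net and 13293 bp from bs.

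Motif content varied among the 12 summits. The 10-base run TCAATATTTG, contained in the marked run of the net 3′ flank, was also found on the opposite strand at 1 px summit, the one 3143 bp downstream of the px-RD start, from 12 to 21 bases right of the summit. It occurred within 50 bp of 29 IDR summits (0.854%), of 53 weaker pooled summits (0.199%) and in 0.0736% of windows of the same width centred 300 bp to either side of IDR summits. The run joins 2 of the leading 8-mers, which were picked for their excess at these IDR summits over these flanks. Its own excess at IDR summits follows at least in part from that choice and is no separate result. The leading 8-mers were the 10 with the highest odds ratio among those at 1% or more of IDR summits, and 1.65% of the 32890 8-mers tested were higher at IDR summits than in these flanks. At least 1 of the 10 was found at 2 of the 12 member summits, beside 15.5% of all IDR summits and 8.43% of weaker pooled summits. The highest px summit held none of the 10.

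Among the known motifs, CANNTG, the E-box bound by helix-loop-helix factors such as net, was within 50 bp of 5 of the 12 summits (4 at px, 1 at net), beside 36.4% of all IDR summits. CAGCTG, a form of it, was at 1 px summit, beside 4.15%. TATAAA was at 1 px and 1 net summit, beside 22.2%. GAGAG, the GAGA factor motif, was at 0 of the 12, beside 12.0%. CAGGTAG, the Zelda motif, was also at 0, beside 0.648%. The CArG box, the site of serum response factors such as bs, was at 0 of the 12, beside 0.442%. The G and C content within 50 bp had a median of 34.2% at the 12 summits, ranging from 16.8% at the net promoter to 50.5% at the px summit 207 bp downstream of the distal start. Its median over all IDR summits was 33.7%.

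A list of 60 further symbols held genes of vein patterning and 5 genes chosen for their ties to bs and net. Of the 60, 59 matched 1 annotated protein-coding gene, and Dl of the Notch pathway did not. The 5 genes with ties to bs and net, of which 2 had an IDR summit, are counted in the shares below. Of the 59, 29 (49.2%) had an IDR summit in the window, beside 20.7% of all protein-coding genes. Their windows were longer, with a median of 18.8 kb against 6.16 kb for all protein-coding genes, and the part of length in the share was not tested. The list was chosen with earlier results of these data known, so its shares are a description and no independent result. By window length, an IDR summit was found at 4 of 18 listed genes under 10 kb (14.9% of all such coding genes), 5 of 16 from 10 to 25 kb (36.7%), 14 of 18 from 25 to 50 kb (50.1%) and 6 of 7 from 50 to 100 kb (61.5%).

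By role, genes of Egfr signalling, which promotes vein fate, had an IDR summit in 8 of 10 cases and none in 2, with a median window of 23.5 kb. Dpp and crossvein genes had one in 9 of 19 cases and none in 10, with a median window of 17.6 kb. The integrin genes mys, if and mew, which hold the wing surfaces together in intervein regions, had one in 3 of 3 cases, with a median window of 35.2 kb, a length at which 50.1% of all coding genes had one. Vein and intervein regulators had one in 3 of 9 cases and none in 6, Notch pathway genes in 2 of 6 and none in 4, and hedgehog and compartment genes in 2 of 7 and none in 5, with median windows of 19.3, 18.6 and 17.7 kb. These counts are to be read against the shares by window length just given, and no role was tested. The last 5 genes were chosen for their ties to bs and net: Mef2, a MADS-box gene, and Mrtf, which encodes a cofactor of serum response factors, had an IDR summit, and the basic helix-loop-helix genes ato, amos and cato had none. Windows were 49.4 and 52.9 kb for Mef2 and Mrtf, and 5.22, 4.79 and 4.71 kb for ato, amos and cato. Of all coding genes, 50.1% had an IDR summit at 25 to 50 kb, 61.5% at 50 to 100 kb and 14.9% under 10 kb. The part of length in this split was not tested.

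The highest summits of the list were all lower than that of px. Mef2, the other MADS-box gene, had its highest IDR summit 1051 bp upstream of its nearest start site, with a signal of 1111, at rank 40 in the pooled list, 56 in replicate 1 and 32 in replicate 2. That summit was nearer to the start of Pal1, 169 bp upstream of it. Gug, which encodes a corepressor of the Atrophin family, had a signal of 790.1 (rank 101). shn, a zinc finger gene that acts in Dpp signalling, had a signal of 763 (rank 109) at 181 bp upstream of its start and 11 IDR summits in all, more than px. S, spi, aos and vn, genes of Egfr signalling, had highest signals of 679, 554, 495 and 425. The spi summit was 244 bp upstream of its start, whereas those of S, aos and vn were 5445, 3074 and 21399 bp downstream. The vn summit was nearer to the start of mad2, 11172 bp upstream of it. The integrin gene if had a signal of 342, at a summit 97 bp upstream of the gene goe. Each of these 8 highest summits had a counterpart in both replicates within 42 bp.

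**Figure D4:**
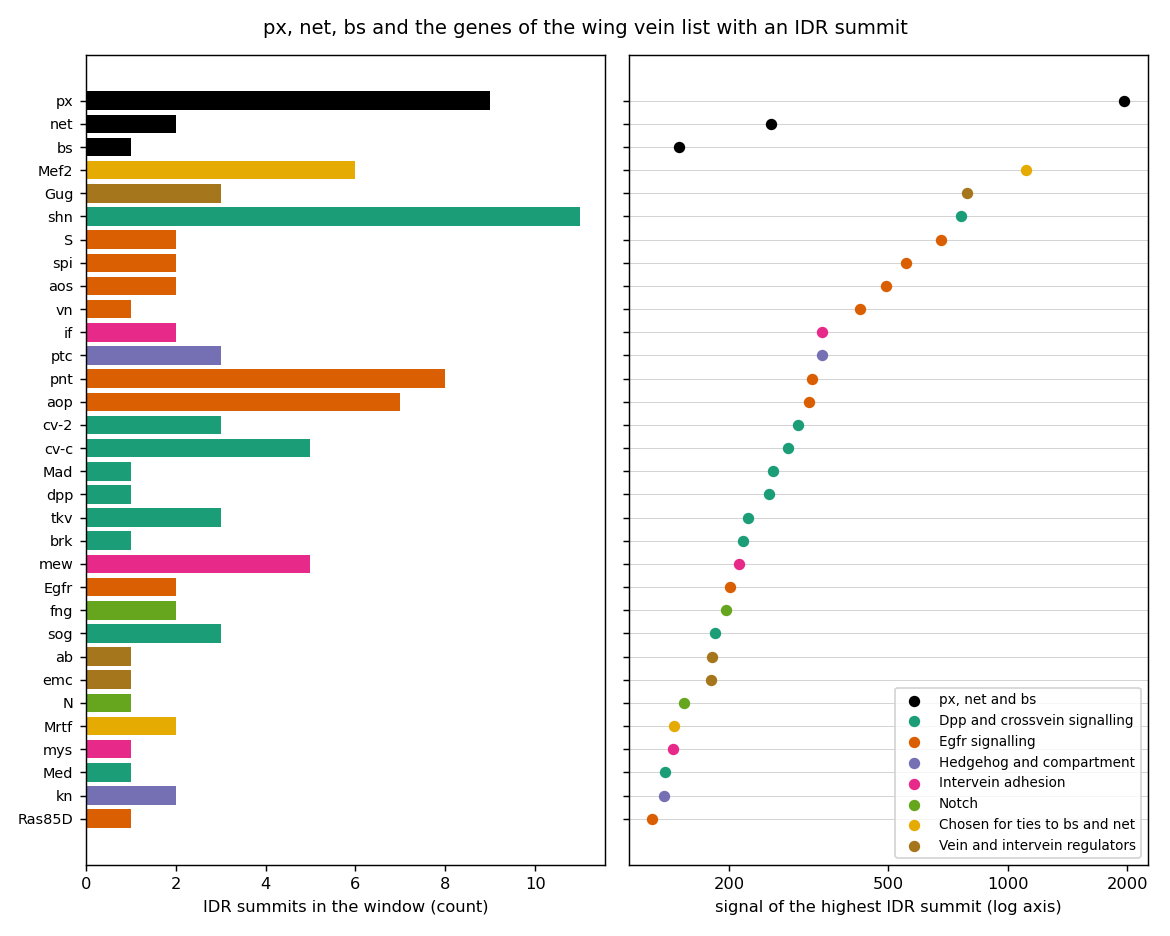
IDR summits per window (left, count) and signal of the highest IDR summit (right, log axis) for px, net, bs and the 29 listed genes with an IDR summit. Rows are ordered by signal below the 3 genes and coloured by role. The 29 include Mef2 and Mrtf, which were chosen for their ties to bs and net. px has the highest signal of the plot at 1962, while px has 9 summits and shn has 11.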

How the data were processed

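The authors deposited 4 narrowPeak lists on dm6: relaxed lists of 30000 peaks for replicate 1, replicate 2 and both pooled, and an IDR list of 3396 peaks. Per the text deposited with the lists, the relaxed lists also used 1 further input file of no stated role, and the IDR list was derived from the 3 relaxed ones. Which caller, aligner and IDR cutoff were used is not stated there. Each deposited peak has a signal value of unstated scale, a −log10 q-value and a summit offset. The IDR list equals the 3396 pooled peaks of highest signal. Peak lists carry no depth, and replicates give 1 rank each, so no error or test is attached to a value.

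Summits were set on Release 6 coordinates (the same assembly as dm6) with Ensembl release 115 gene models, transposable elements kept apart. A summit was matched to a replicate within 100 bp and called a promoter summit within 500 bp of a start site. Flank and IDR windows were compared for all 8-mers by Fisher's exact test with Benjamini-Hochberg adjustment (threshold 0.05). This step was tried on random sequences with a planted 8-mer, which came first. That trial does not check the calls on the real windows. The genes px, net and bs and all lists were chosen with earlier results of these data known. The rule for named items was every IDR summit of the 3 genes, the strongest pooled summit outside the IDR list, the 8 listed genes of highest signal and, for each of the 3, the 3 genes most alike. The replicate 2 summits at the bs start sites, the gas summit and the gene ush were named after their values were seen. Of the 60 listed symbols, 1 was not matched, Dl of the Notch pathway, and it is not analysed here. Sequences are from the RefSeq Release 6 assembly. Python 3.11.15, pandas 2.3.3 and scipy 1.17.1 were used.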

Additional observations from a re-analysis of the deposited data

How the results depend on the processing

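Of 36 alternative values over 7 counts, 30 stayed within 1.5 times the reported count. With the upper 1698 peaks of the IDR list px had 4 summits, bs 0 and 1872 protein-coding genes at least 1. With the gene body alone net had 0 summits, since both lie outside it, and 1370 protein-coding genes had at least 1. In the 3396 highest peaks of 1 replicate alone, px had 7 (replicate 2) to 10 (replicate 1) and net had 3 in each. The net summits were not all the same. Replicate 1 added the intronic one (rank 2502), and replicate 2 the weaker of its 3′ flank pair (rank 2643). bs had 0 (replicate 1) to 1 (replicate 2), so the bs call rests on replicate 2 and the pooled list. A match within 50 bp kept 11 of 12 summits, the net 3′ flank being lost. No paired analysis was possible because the study has 1 group. Depth is unknown, so a gene without a summit is not shown to be unbound.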
